A study of Homo sapiens with 6 samples.

Results

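The genes described here are 7 keratins, KRT7, KRT8, KRT18, KRT19, KRT80, KRT81 and KRT86, together with vimentin (VIM). They were taken from the deposited count table by their symbols, which gave 8 of 57773 genes. RNA was counted in A549, an established line of human lung adenocarcinoma cells. In the rhSP-D group, 3 samples had received recombinant human surfactant protein D at 10 µg/ml over 48 h. In the vehicle group, 3 samples had received the same volume of the elution buffer over the same time. The labels describe a cell line with 1 protein added from outside and name no genetic change.

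Keratins and vimentin form intermediate filaments, the flexible cables that give a cell its resistance to stretch. Keratins assemble only as pairs of a type I and a type II chain, and simple epithelia such as those of the lung pair KRT8 and KRT7 (type II) with KRT18 and KRT19 (type I). Vimentin, a type III filament protein, assembles with itself and is typical of mesenchymal cells, but many carcinoma lines grown on plastic also make it. KRT81 and KRT86 are type II hair keratins, found normally in the hair shaft and known also from some carcinomas. KRT80 is a type II keratin of differentiating epithelia.

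Library totals ranged from 11396193 to 26030880 counts. The epithelial markers set for this line summed to 9500 to 9670 in rhSP-D and 9290 to 9400 in vehicle in CPM, the counts per 1000000 of the scaled library total. Nearly all of it was KRT8 and KRT18, which are among the genes described here. Of the other epithelial markers the cadherin gene CDH1 had the most, with 9090 counts over the rhSP-D group and 7394 over the vehicle group. EPCAM, an epithelial adhesion molecule, had only 125 counts over the rhSP-D group and 94 over the vehicle group. Of the 8 alveolar type II markers only the lipid transporter gene ABCA3 and the protease gene NAPSA had enough counts to be tested. The surfactant gene SFTPC had 10 counts over each group, and the lineage factor gene NKX2-1 had 1 count in rhSP-D and 3 in vehicle. The 5 basal airway markers summed to 1.8 to 1.96 CPM in rhSP-D and 1.24 to 1.39 CPM in vehicle. Among them the basal keratins KRT5, KRT14 and KRT15 had 6, 2 and 34 counts in rhSP-D and 1, 0 and 14 in vehicle. TP63, the only 1 of the 5 tested, had 66 counts in rhSP-D and 44 in vehicle and did not pass. CDKN2A, which is deleted in this line, had 3 counts over the rhSP-D group and 4 over the vehicle group.

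The plainest result was a rise of KRT81, KRT7 and VIM in rhSP-D, by 14.7%, 11.5% and 7.15% over vehicle. KRT18 was higher by 3.45%, a call that did not survive every setting, and KRT8, KRT19, KRT80 and KRT86 did not pass the test. In bulk RNA a change in the number of cells that make a transcript and a change in its amount per cell cannot be told apart. Passing means an adjusted p under 0.05 in edgeR's quasi-likelihood test, adjusted over all 15848 genes tested, and changes are rhSP-D over vehicle. All 8 genes were tested, and 4 passed, all of them higher. Of all genes tested, 15.9% passed in either direction, 9.31% as higher and 6.63% as lower. These shares are not matched for abundance. The 4 genes that passed averaged 958 to 4197 CPM with SEs of 0.0137 to 0.0164, beside an SE of 0.26 for KRT19 at 1.68 CPM. With library totals as the only scaling 30.4% of all changed genes were higher, against 58.4% here, and 3 of the 8 genes passed, KRT18 no longer among them. The 3 rhSP-D values lay wholly above the 3 vehicle values for 5 of the 8 genes, against 16.2% of all genes with rhSP-D wholly above and 31.5% with no overlap in either direction. The 8 genes had a median log2 change of 0.07, against -0.01 over all genes.

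**Figure D1:**
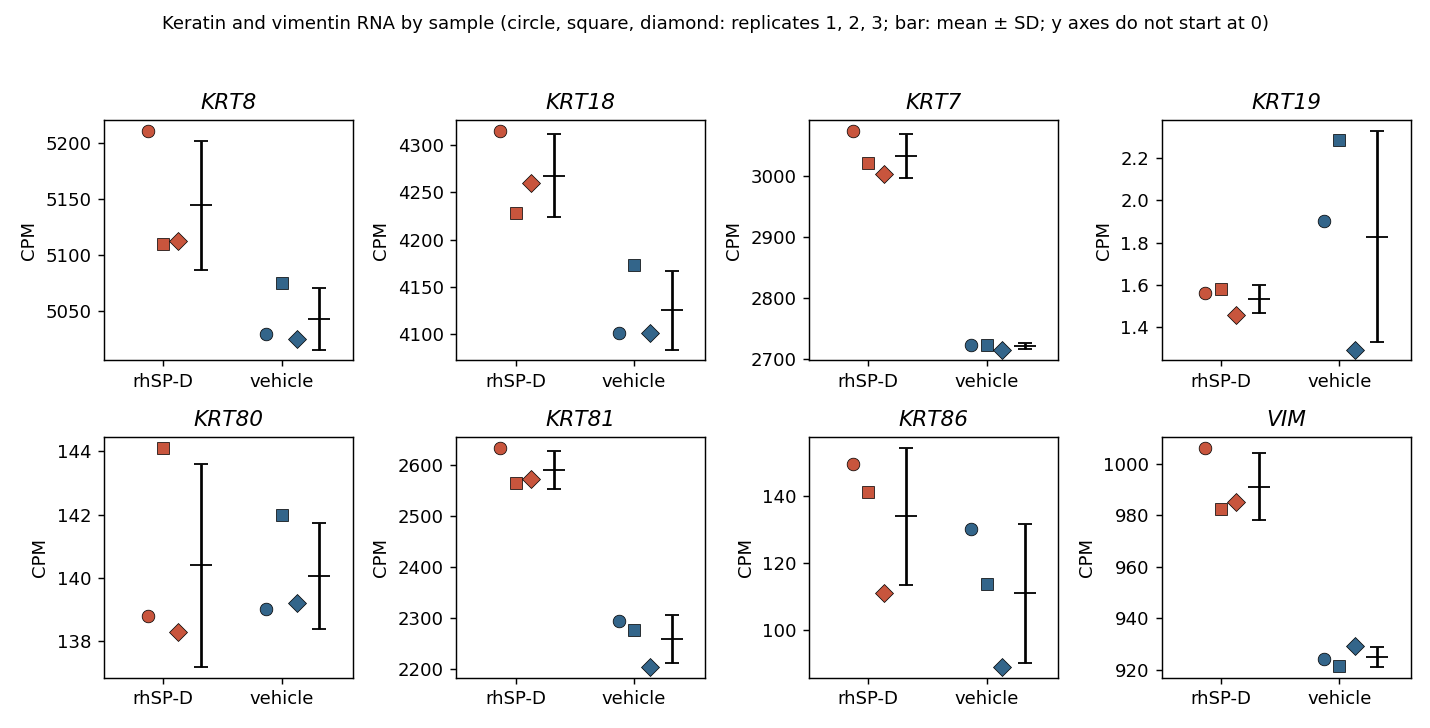
CPM of each gene in the 6 samples, rhSP-D left and vehicle right, with the mean ± SD (n = 3) beside the points; the y axes do not start at 0. KRT7, KRT81 and VIM show a clear gap between the groups, KRT8 and KRT18 a narrow one, and KRT19, KRT80 and KRT86 overlap.

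KRT81 and KRT86 need to be read together, because reads from the stretches they share cannot be given to either gene by their letters alone. On chromosome 12, KRT81 at 52285913 to 52291534 lies within the span of KRT86 at 52249300 to 52309163, on the opposite strand and with no exon in common (GRCh38, GENCODE 29). Their coding sequences are 94.2% identical over 1454 aligned bases, and the longest run without a difference inside a single exon of each gene was 309 bases. Of all 100-base windows of the KRT81 transcript, 29.4% occur letter for letter in KRT86, and 25.4% of those of KRT86 occur in KRT81. How reads that fit both genes were counted is not given in the sources used here.

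Levels can be compared between genes only per length. Per kilobase of merged exons, KRT81 stood at 1343 ± 19.4 CPM in rhSP-D and 1171 ± 24.6 in vehicle, and KRT18 at 1326 ± 13.6 in rhSP-D and 1282 ± 12.9 in vehicle (SD, n = 3). On this scale KRT8 had 748 ± 8.30 in rhSP-D and 733 ± 4 in vehicle, and KRT7 had 741 ± 8.97 in rhSP-D and 665 ± 1.19 in vehicle. In rhSP-D, KRT81 and KRT18 overlapped in their sample values, as did KRT8 and KRT7, whereas in vehicle both pairs were separate. VIM was lower than these, at 192 ± 2.51 CPM per kilobase in rhSP-D and 179 ± 0.734 in vehicle. KRT86 followed at 55.95 ± 8.53 in rhSP-D and 46.4 ± 8.68 in vehicle. KRT80 was at 32.3 ± 0.735 in rhSP-D and 32.2 ± 0.392 in vehicle, and KRT19 was scarce, at 0.656 ± 0.029 and 0.782 ± 0.215. The order of the 4 most abundant keratins depends on the length used, since KRT8 has 6881 bases of merged exons but 2126 in its principal transcript. Per kilobase of principal transcript KRT18 led in both groups (2732 in rhSP-D, 2641 in vehicle), followed by KRT8 (2420 and 2372), KRT7 (1729 and 1551), KRT81 (1343 and 1171) and VIM (464 and 433), with no overlap between neighbours' mean ± SD. With either length KRT8, KRT18, KRT7 and KRT81 were the 4 most abundant transcripts of the 8, and KRT19, the other type I partner in simple epithelia, was the scarcest.

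**Figure D2:**
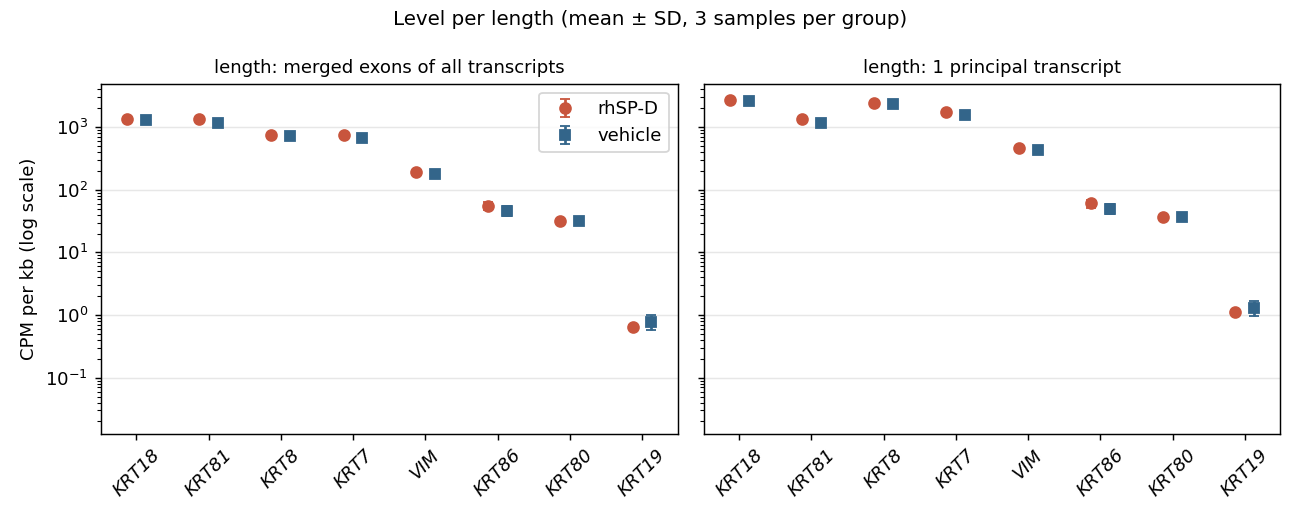
CPM per kilobase on a log axis, mean ± SD of 3 samples per group, with rhSP-D left of vehicle for each gene; the left panel divides by merged exons and the right panel by 1 principal transcript. KRT18, KRT81, KRT8 and KRT7 lie far above KRT86 and KRT80, and KRT19 is near 1 CPM per kilobase in both panels.

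Among the type II keratins, KRT81 (ENSG00000205426) changed with the smallest p of the 8 genes. It had 2633, 2565 and 2572 CPM in rhSP-D replicates 1, 2 and 3, against 2295, 2277 and 2205 CPM in vehicle replicates 1, 2 and 3. Every rhSP-D sample lay above every vehicle sample, and the gap between the groups was wider than the range within either. The log2 change was 0.20 ± 0.02 (SE, 95% interval 12.1% to 17.4%, adjusted p = 7.21e-10). When each library was corrected for trends with the length and the GC content of the genes, called the length-GC correction here, the log2 change was 0.09 (adjusted p = 0.000221), smaller but still past the threshold. The KRT81 transcript is GC-rich, at 62.3%, beside 46.9% for that of VIM.

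KRT7 (ENSG00000135480, chromosome 12, 52232520 to 52252186), a keratin of glandular epithelia used in pathology to mark lung adenocarcinoma, behaved much the same. It had 3074, 3021 and 3004 CPM in rhSP-D, against 2724, 2724 and 2716 CPM in vehicle. The vehicle samples were nearly equal, and all 3 rhSP-D samples were higher. The log2 change was 0.16 ± 0.01 (SE, interval 9.26% to 13.7%, adjusted p = 4.43e-09). With the length-GC correction it was 0.09 (adjusted p = 1.21e-05). Exons of the antisense gene KRT7-AS cover 282 bases, or 6.89%, of the exonic length of KRT7.

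KRT8 (ENSG00000170421, chromosome 12, 52897187 to 52949954), the general type II partner of KRT18, had the highest counts of the 8 genes. It had 5211, 5110 and 5113 CPM in rhSP-D, against 5030, 5075 and 5025 CPM in vehicle. The groups did not overlap, but the gap between them was narrower than the spread among the rhSP-D samples. The change of 2.01%, with an interval from 0.106% to 3.95%, did not pass (log2 change 0.03 ± 0.01 SE, adjusted p = 0.151). With limma-voom it passed at an adjusted p of 0.0078, and with library totals as the only scaling its log2 change was -0.01.

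KRT80 (ENSG00000167767, chromosome 12, 52168996 to 52192000) had the smallest log2 change of the 8 genes. It had 138.8, 144.1 and 138.3 CPM in rhSP-D, against 139, 142 and 139.2 CPM in vehicle. The samples of both groups interleaved. The change was 0.0912%, with an interval from -3.84% to 4.18% (adjusted p = 0.985).

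KRT86 (ENSG00000170442) varied widely among the replicates of each group. It had 149.7, 141.3 and 110.9 CPM in rhSP-D replicates 1, 2 and 3, against 130.2, 113.7 and 88.95 CPM in vehicle replicates 1, 2 and 3. Replicate 3 was the lowest sample in both groups, and rhSP-D replicate 3 lay below vehicle replicates 1 and 2. The log2 change was 0.31 ± 0.20 (SE, interval -15.1% to 79.8%, adjusted p = 0.427), an interval that holds 0 and the change of KRT81 alike. Its log2 change was 0.15 without vehicle replicate 3 (adjusted p = 0.728). KRT86 counts equalled 5.68%, 5.51% and 4.31% of KRT81 counts in rhSP-D and 5.67%, 4.99% and 4.03% in vehicle. With the counts of both genes summed, the log2 change was 0.20 ± 0.02 (SE, adjusted p = 4.32e-07), or 15%. Most of that sum was KRT81, which passed alone, so the sum cannot show a change of KRT86. KRT83, another hair keratin of the same cluster, was at 23.1, 26.0 and 22.7 CPM in rhSP-D and 22.2, 27.99 and 23.3 CPM in vehicle, with overlapping groups (adjusted p = 0.739). KRT121P, a keratin pseudogene row of the same locus, had 6.95, 8.83 and 7.28 CPM in rhSP-D and 8.74, 9.59 and 8.999 CPM in vehicle, and did not pass either (unadjusted p = 0.0302, adjusted p = 0.127), though it did as lower with the length-GC correction (log2 change -0.37, adjusted p = 0.0277) and without rhSP-D replicate 2 (adjusted p = 0.0455).

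**Figure D3:**
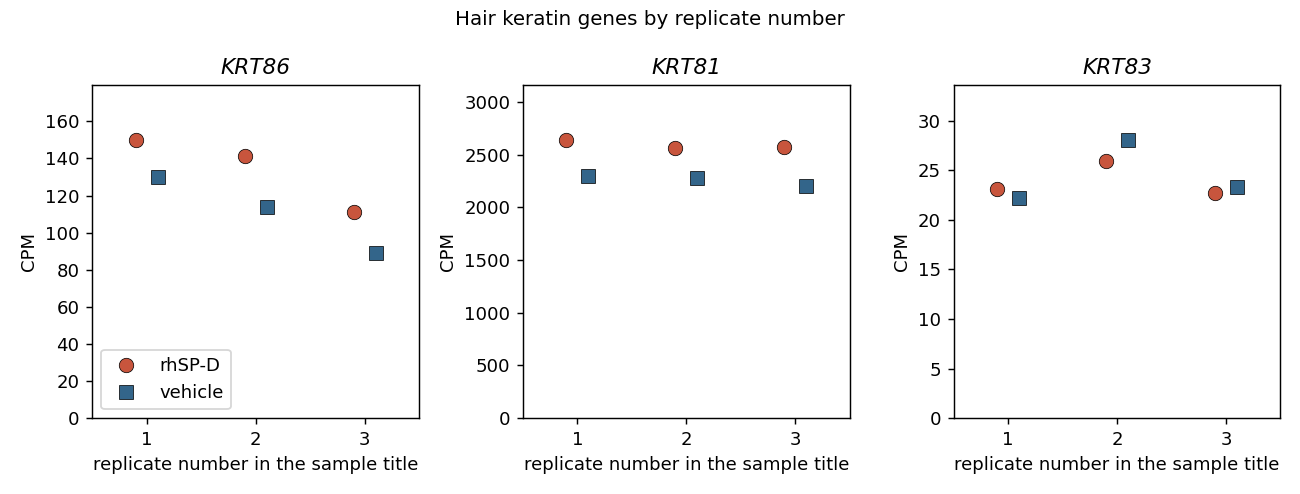
CPM of the hair keratin genes KRT86, KRT81 and KRT83 for each replicate number of the sample titles, with circles for rhSP-D and squares for vehicle and y axes from 0. KRT86 is lowest in replicate 3 of both groups (110.9 CPM in rhSP-D, 88.95 in vehicle), while KRT81 separates by group at every number and KRT83 does not.

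Of the type I keratins, KRT18 (ENSG00000111057, chromosome 12, 52948871 to 52952901) is the usual partner of KRT8 in simple epithelia and its direct neighbour in the genome. It had 4315, 4228 and 4260 CPM in rhSP-D, against 4101, 4173 and 4102 CPM in vehicle. All rhSP-D samples were higher, but the gap between the groups was narrower than the range within either. The log2 change was 0.05 ± 0.01 (SE, interval 1.46% to 5.49%, adjusted p = 0.0131). When rhSP-D replicate 1 was left out the adjusted p was 0.0936, and it was 0.0665 or 0.0695 when vehicle replicate 1 or 3 was left out, so the call was lost each time. With the length-GC correction the log2 change was -0.01 (adjusted p = 0.664).

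KRT19 (ENSG00000171345, chromosome 17, 41523617 to 41528308), a type I keratin often abundant in carcinomas, was close to the limit of counting. It had 40, 29 and 29 counts in rhSP-D, against 22, 41 and 26 counts in vehicle, or 1.56, 1.58 and 1.46 CPM in rhSP-D and 1.90, 2.29 and 1.29 CPM in vehicle. The groups overlapped, and the log2 change of -0.24 ± 0.26 (SE, adjusted p = 0.603) has an interval from -41.4% to 22.4%. No difference of KRT19 was detected, and its log2 change was -0.015 without vehicle replicate 2 and -0.46 without vehicle replicate 3, neither past the threshold.

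KRT8 and KRT18 share reads in other ways. Their exons overlap on opposite strands over 525 bases, which is 16.3% of the exonic length of KRT18 and 7.63% of that of KRT8. The library kit named in the labels does not mark strand, so reads from there cannot be told apart. Both also have many processed pseudogenes, of which 50 rows carry the name of KRT8 and 67 that of KRT18. Their counts were small, adding 0.229% to 0.312% to KRT8 in rhSP-D and 0.261% to 0.309% in vehicle, and summing them into the parent genes left the log2 changes at 0.03 for KRT8 and 0.05 for KRT18. Reads that fit several genes may have been dropped from every row, so these sums cannot show how many reads are shared. Of all 100-base windows of the KRT8 transcript 7.7% occur in another gene, with 3.5% in KRT8P3. For KRT18 it was 16.6%, all in KRT8.

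VIM (ENSG00000026025, chromosome 10, 17228259 to 17237593) is the only filament gene of the 8 that is not a keratin. It had 1006, 982.3 and 985 CPM in rhSP-D, against 924.4, 921.7 and 929.2 CPM in vehicle. All rhSP-D samples were higher, and the vehicle samples were close together. The log2 change was 0.10 ± 0.02 (SE, interval 4.68% to 9.68%, adjusted p = 6.60e-05). The length-GC correction gave 0.12 (adjusted p = 1.35e-06), while scaling by library totals alone gave 0.06 (adjusted p = 0.0103). Exons of the antisense gene VIM-AS1 cover 641 bases, or 12.4%, of the exonic length of VIM. Another antisense gene, AL133415.1, covers 619 bases. Together 1260 bases, or 24.4%, of the exonic length of VIM overlap other genes. Of all 100-base windows of the VIM transcript, 29.3% occur in another gene, 26.6% in VIM-AS1 and 2.7% in AL133415.1. These windows restate the overlap with the same antisense genes. As for KRT8 and KRT18, reads from the overlapping stretches cannot be told apart by strand. VIM-AS1 had 71, 48 and 53 counts in rhSP-D and 12, 46 and 68 in vehicle, and did not pass (adjusted p = 0.798). Markers of fibroblasts, which are rich in vimentin, summed to 13.5 to 14.4 CPM in rhSP-D and 10.9 to 15 CPM in vehicle over 8 genes. Most of it was COL1A1, with 784 counts over the rhSP-D group and 570 over the vehicle group, followed by LUM with 83 and 65. COL1A1 and LUM were the only 2 tested, and neither passed. DCN had no count in any sample. COL1A2 and THY1 had 1 and 0 counts over the rhSP-D group and 2 and 1 over the vehicle group. Leukocyte markers summed to 94.3 to 99.5 CPM in rhSP-D and 85.2 to 91.5 CPM in vehicle over 6 genes, nearly all of it the lysosomal gene CD68, the only one to rise, while PTPRC, the defining leukocyte gene, had 0 counts in rhSP-D and 1 in vehicle. Endothelial markers were at most 0.117 CPM in rhSP-D and 0.0993 CPM in vehicle over the 3 genes analysed.

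Ratios of counts within a library do not depend on how libraries are scaled to each other, and several differed between the groups. KRT7 counts were 0.590, 0.591 and 0.588 of KRT8 counts in rhSP-D, against 0.542, 0.537 and 0.540 in vehicle. KRT81 counts were 0.505, 0.502 and 0.503 of KRT8 counts in rhSP-D, against 0.456, 0.449 and 0.439 in vehicle. VIM counts were 0.193, 0.192 and 0.193 of KRT8 counts in rhSP-D, against 0.184, 0.182 and 0.185 in vehicle. In each case the rhSP-D samples were all higher. The ratio of KRT8 to KRT18 was 1.21, 1.21 and 1.2 in rhSP-D and 1.23, 1.22 and 1.23 in vehicle, with the rhSP-D samples all slightly lower. These ratios restate the changes above and were not tested. They carry no length-GC correction. With it the log2 change was 0.016 for KRT8 and -0.0122 for KRT18, the reverse of their order in the main analysis. KRT7 (0.0927), KRT81 (0.0864) and VIM (0.1237) stayed above KRT8. The 8 genes together made up 1.63%, 1.597% and 1.59% of all counts in rhSP-D, against 1.56%, 1.56% and 1.54% in vehicle.

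The genes with the most similar profile over the samples were looked up for the 4 genes that passed. By the root-mean-square difference of the centred log2 CPM over the 6 samples, among 9813 genes averaging 10 CPM or more, the nearest to KRT7 were TST (0.0071) and GSTP1 (0.0076). Nearest to KRT81 were ZNF428 (0.0078) and FBL (0.01), nearest to KRT18 were ARF1 (0.0056) and ATP5B (0.0065), and nearest to VIM were GRWD1 (0.0064) and CHMP4B (0.007). No other keratin or filament gene was among these nearest profiles.

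The other keratins of the table were mostly silent. Of 49 further keratin rows, 21 had no count in any sample and 7 had enough counts to be tested. Of these 2 rose (28.6%, against 15.9% of all genes), with a median log2 change of 0.12 over the 7. KRT10, a type I keratin best known from the upper epidermis, had 85.1, 82.1 and 83.02 CPM in rhSP-D, against 75.4, 75.7 and 78.1 CPM in vehicle, a log2 change of 0.13 ± 0.04 (SE, adjusted p = 0.013). KRT17, a type I keratin induced in stressed epithelia, had 10.9, 10.96 and 9.44 CPM in rhSP-D, against 7.96, 8.76 and 8.30 CPM in vehicle, a log2 change of 0.32 ± 0.10 (SE, adjusted p = 0.0295). The groups of both genes did not overlap, but neither call held with the length-GC correction (log2 changes 0.06 and 0.25, adjusted p = 0.299 and 0.131). Neither passed with library totals as the only scaling or without rhSP-D replicate 1. KRT17 was also lost without rhSP-D replicate 2, vehicle replicate 1 or vehicle replicate 3. DESeq2 did not call KRT10 and gave KRT17 no adjusted p. Of the list of keratin pseudogenes, which leaves out KRT121P described above, 5 were tested. Of these 0 passed in edgeR or limma-voom and 0 had an unadjusted p under 0.05 in edgeR, while DESeq2 gave an adjusted p to 0 of the 5. Among these 5, the most abundant were KRT8P12 and KRT8P3. KRT8P12 had 6.25, 7.63 and 7.43 CPM in rhSP-D and 6.06, 8.14 and 6.86 CPM in vehicle, and KRT8P3 had 2.27, 4.31 and 4.32 CPM in rhSP-D and 3.46, 3.01 and 2.93 CPM in vehicle. Both overlapped between groups.

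Filament genes outside the keratins moved in both directions. Of 15 genes, 9 were tested, 1 rose and 3 fell (44.4%, against 15.9% of all genes), with a median log2 change of -0.14. LMNA, which encodes lamins A and C of the nuclear lamina, had 466, 452 and 449 CPM in rhSP-D, against 424, 424 and 425 CPM in vehicle, a rise of 7.34% (log2 change 0.10 ± 0.02 SE, adjusted p = 0.000491). LMNB1, which encodes the lamina protein lamin B1, had 52.4, 50 and 50.1 CPM in rhSP-D, against 56.6, 58.7 and 54.3 CPM in vehicle, a fall with log2 change -0.15 ± 0.04 (SE, adjusted p = 0.0169). LMNA and LMNB1 thus moved in opposite directions, with no overlap between groups for either. NEFL, the light neurofilament chain, fell with log2 change -0.27 ± 0.06 (SE, adjusted p = 0.00179), at 24.6, 26.8 and 23.8 CPM in rhSP-D and 29.2, 29.8 and 31.2 CPM in vehicle. SYNC, which encodes the filament protein syncoilin, fell with log2 change -0.15 ± 0.04 (SE, adjusted p = 0.0195). The call of LMNB1 was lost without rhSP-D replicate 2 or 3 or vehicle replicate 2, and that of SYNC without rhSP-D replicate 1 or 3 or vehicle replicate 1 or 2. Without rhSP-D replicate 3 or vehicle replicate 2 the list had 2 changed genes in place of 4, as it had with DESeq2.

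**Figure D4:**
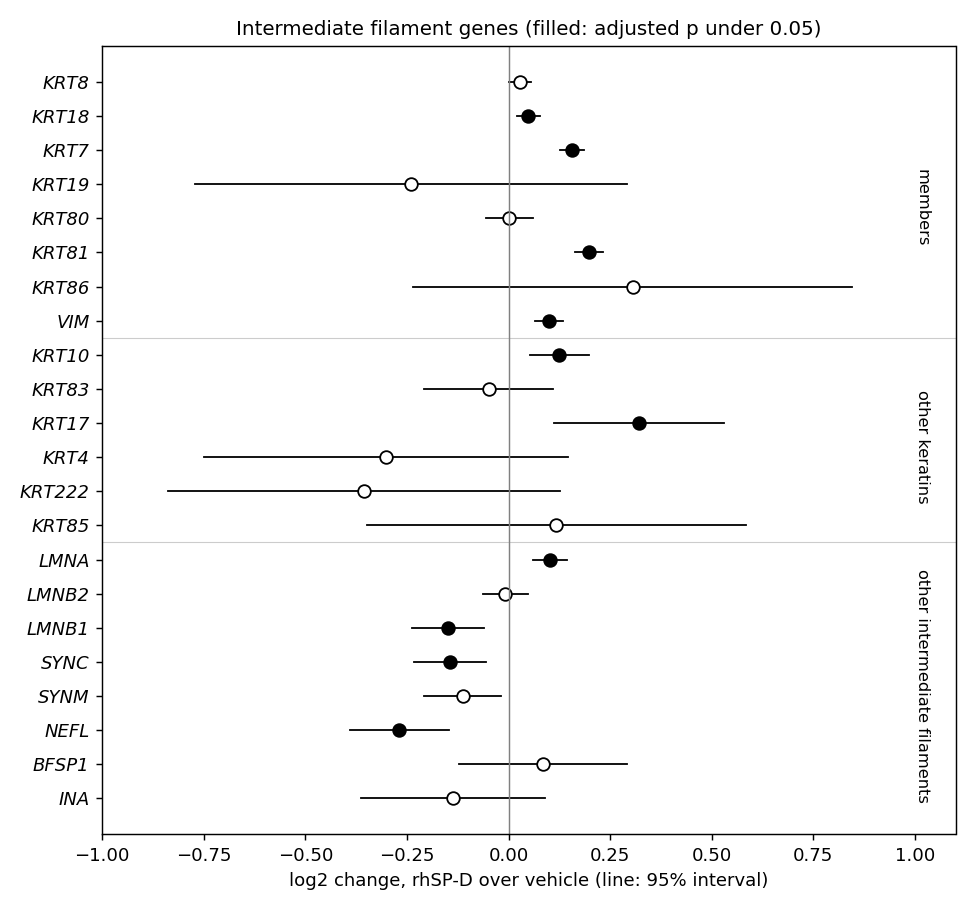
Log2 change of rhSP-D over vehicle with its 95% interval for the 8 genes and for the tested keratins and other filament genes averaging 1 CPM or more; filled points passed. KRT7, KRT81 and VIM lie right of 0 with short intervals, while KRT19 and KRT86 have intervals that span 0 widely, and LMNB1, SYNC and NEFL lie left of 0.

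Plakins and desmosome proteins anchor filaments to junctions and to other cables. Of 15 tested genes of this kind 3 fell and 0 rose (20%, against 15.9% of all genes that passed in either direction and 6.63% as lower), with a median log2 change of -0.10. DSG2, a desmosomal cadherin, had 77.3, 77.1 and 76.6 CPM in rhSP-D, against 94.2, 90.7 and 91.6 CPM in vehicle, a log2 change of -0.26 ± 0.03 (SE, adjusted p = 2.64e-06). DST, which encodes the linker dystonin, was at -0.17 ± 0.04 (SE, adjusted p = 0.00407), and PKP4, a plakophilin, was at -0.15 ± 0.04 (SE, adjusted p = 0.0147). With the length-GC correction only DSG2 of these 3 passed (log2 change -0.20, adjusted p = 0.000118), and without rhSP-D replicate 2 or vehicle replicate 1 PKP4 was lost. With library totals as the only scaling 5 of the list passed. PLEC, which encodes the linker plectin, was at 1185 ± 41.2 CPM in rhSP-D and 1215 ± 31.1 CPM in vehicle and did not pass (adjusted p = 0.429).

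Among 16 partners and regulators of filaments 3 rose and 1 fell (25%, against 15.9% of all genes), with a median log2 change of 0.04. STUB1, a chaperone-linked ubiquitin ligase, rose by 11.9% (log2 change 0.16 ± 0.03 SE, adjusted p = 9.01e-05), and the small heat shock protein gene HSPB1 by 7.65% (0.11 ± 0.02 SE, adjusted p = 0.000217). SFN, which encodes 14-3-3 sigma, rose by 14.9% (0.20 ± 0.04 SE, adjusted p = 0.00115). CSNK1A1, which encodes casein kinase 1 alpha, was at a log2 change of -0.13 ± 0.03 (SE, adjusted p = 0.000731). None of these 4 passed with the length-GC correction, and HSPB1 then stood at -0.01.

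Factors that set epithelial or mesenchymal expression did not pass. Of 18 such genes 13 were tested and 0 passed in edgeR or limma-voom, with 4 at an unadjusted p under 0.05 in edgeR and a median log2 change of -0.001. DESeq2 gave an adjusted p to only 3 of the 13, and 0 of those passed. Without vehicle replicate 2 there were 2 that passed, 1 of them KLF5 (adjusted p = 0.0382), and with library totals as the only scaling 3. ELF3, an epithelial transcription factor, had 187, 186 and 186 CPM in rhSP-D and 180, 179 and 180 CPM in vehicle (adjusted p = 0.143), and KLF5 had 116, 125.6 and 125 CPM in rhSP-D and 136, 125 and 130 CPM in vehicle (adjusted p = 0.0794). ZEB1, a repressor of epithelial genes, was at 14.7 ± 0.165 CPM in rhSP-D and 17.1 ± 1.23 CPM in vehicle (adjusted p = 0.0684).

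Epithelial and mesenchymal surface and matrix genes went both ways. Of 10 tested 2 rose and 2 fell (40%, against 15.9% of all genes), with a median log2 change of 0.02. TGFBI, a secreted matrix protein gene, had 2415, 2440 and 2430 CPM in rhSP-D, against 2179, 2167 and 2143 CPM in vehicle, a log2 change of 0.17 ± 0.01 (SE, adjusted p = 1.91e-09). SPARC, another matrix gene counted as mesenchymal, rose by 9.48% (adjusted p = 0.0111), a call lost without rhSP-D replicate 3 or vehicle replicate 3, or with library totals as the only scaling. FN1, which encodes fibronectin, also counted as mesenchymal, fell with log2 change -0.11 ± 0.03 (SE, adjusted p = 0.0048), but was at -0.01 with the length-GC correction (adjusted p = 0.911). TJP1, a tight junction scaffold, fell with log2 change -0.19 ± 0.03 (SE, adjusted p = 8.45e-05), or -0.11 with the length-GC correction (adjusted p = 0.0188). CDH1, the epithelial cadherin, was at 143 ± 4.05 CPM in rhSP-D and 149 ± 1.83 CPM in vehicle (adjusted p = 0.131), and CDH2, the cadherin of mesenchymal cells, at 40.2 ± 2.07 and 40.8 ± 3.02 CPM (adjusted p = 0.682). VIM, TGFBI and SPARC rose while FN1 fell, and neither cadherin passed.

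The calls of KRT7, KRT81 and VIM held in every alternative analysis, and no alternative turned their direction. With 1 library left out their log2 changes ran from 0.15 to 0.16 for KRT7, from 0.18 to 0.21 for KRT81 and from 0.09 to 0.11 for VIM. Their sizes and order were less stable than the calls. With the length-GC correction the log2 changes were 0.0927 for KRT7, 0.0864 for KRT81 and 0.1237 for VIM. VIM then had the largest change of these genes, whereas in the main analysis it had the smallest.

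**Figure D5:**
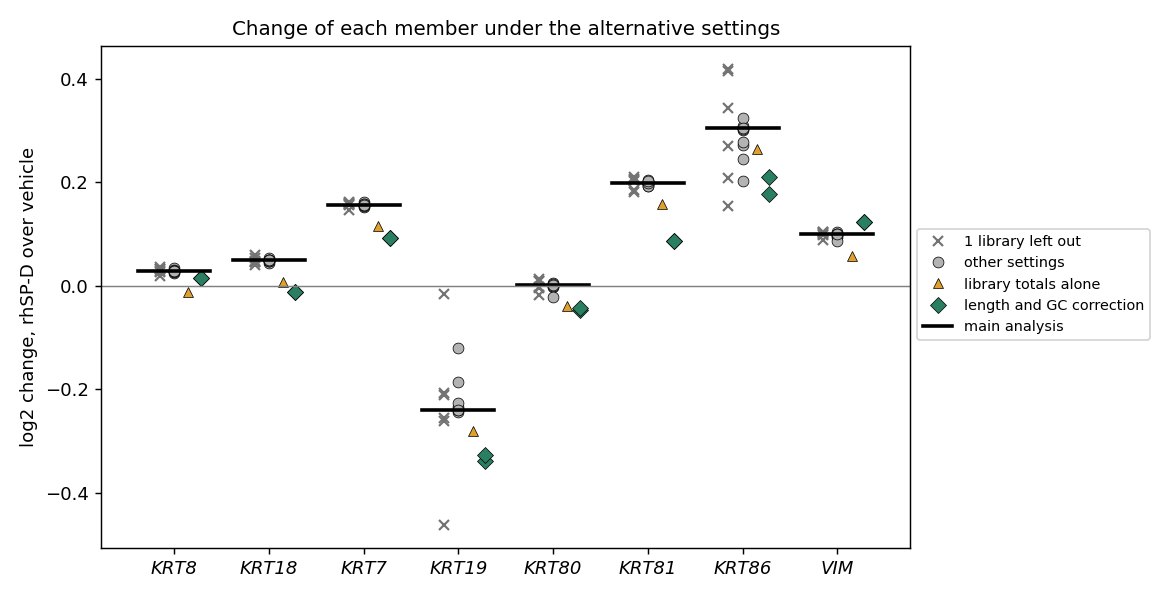
Log2 change of each gene (rhSP-D over vehicle) in the main analysis, as a black line, and under the alternative settings, as symbols. KRT7, KRT81 and VIM stay above 0 throughout, KRT8, KRT18 and KRT80 each lie below 0 with library totals, the length-GC correction or both, and KRT19 and KRT86 move most when 1 library is left out.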

How the data were processed

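Poly(A) RNA of 6 A549 samples, 3 rhSP-D and 3 vehicle by their titles, was sequenced paired-end after Trizol extraction with an NEBNext Ultra RNA kit, per the labels' protocols. The authors deposited unnormalized counts per Ensembl gene; the submitters' processing notes name GRCh38 (hg38), featureCounts 2.0.0, cutadapt and STAR 2.7.0a. Not given in the sources used here are the annotation release, the strand setting and how reads that fit several genes were treated. Whether replicates are separate cultures is not stated; p-values then cover only how far these samples spread, possibly for technical reasons (biological coefficient of variation 2.51%).

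Counts were tested with edgeR 4.0.16 in R 4.3.3 (filterByExpr with minimum count 10 and minimum total 15, TMM factors, robust quasi-likelihood fit, 2-sided, Benjamini-Hochberg adjustment over 15848 genes). SEs come from the test statistic, and CPM use TMM-scaled totals. Coordinates, exons and transcripts are from GENCODE 29, which holds 52337 of the 57773 gene identifiers. KRT121P of the table is named KRT87P there. Sequence windows of 100 bases were compared on both strands. The sequences themselves are not reported here.

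The genes and lists were chosen with earlier results of these data known. Named besides the 8 genes are up to 4 changed genes per list with the smallest p (mean of at least 1 CPM), or the 2 most abundant where none changed, the 2 nearest profiles of each changed gene, and rows that can share reads; PLEC, ZEB1, CDH1 and CDH2 were added after their values were seen. Alternatives were other scalings and filters, DESeq2 1.42.0, limma 3.58.1 (voom), a replicate block, each library left out, thinning to 11396193 counts, an adjusted p under 0.01, summed paralogs or pseudogenes, and offsets from natural splines (5 degrees of freedom) on length and GC content. The procedure was tested on simulated data.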

Additional observations from a re-analysis of the deposited data

How the results depend on the processing

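The calls of KRT7, KRT81 and VIM held in all settings tried. Over all genes 2526 changed, with 1534 by DESeq2, 1507 after the length and GC correction, 1343 with that correction and the replicate block, 1465 at an adjusted p under 0.01, and 1678 (without rhSP-D replicate 1) to 2182 with 1 library left out. Scaled by library totals, 856 genes were higher and 1961 lower (30.4% higher, against 58.4%).

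For KRT18 (log2 change 0.049) the log2 change was 0.008 with library totals, -0.0122 with the correction and -0.0123 with correction and block. With 1 library left out it was 0.0403 to 0.0596. The adjusted p of KRT18 in edgeR's test, 0.0131, missed the threshold of 0.01. KRT8 had a log2 change of -0.0123 with library totals and passed with limma-voom (log2 change 0.0304, adjusted p = 0.0078). KRT80 changed sign without passing: -0.0032 with upper-quartile factors, -0.0397 with library totals, -0.0006 with the CPM filter, -0.0462 with the correction, -0.0438 with correction and block, -0.0215 when thinned, and -0.0174 to 0.0141 with 1 library left out. The summed counts of KRT81 and KRT86 passed at a log2 change of 0.2019. KRT86 added only 4.03% to 5.68% to the KRT81 counts, and KRT81 passed alone, so the sum cannot show a change of KRT86. With 1 library left out KRT86 itself was 0.1534 to 0.4196 without passing.

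Over all genes tested together, the replicate numbers showed no pairing of the samples. Deviations from the group means of same-numbered samples correlated at -0.08, -0.07 and 0.03, and not every sample correlated best with its own number. Correlations over all genes cannot show a replicate effect limited to few genes, and the term for replicate number, described below, passed for 20 genes. A replicate block gave 2319 changed genes; KRT86 then passed (log2 change 0.2771, adjusted p = 1.79e-06, and 0.1784 with the correction as well), and no other of the 8 calls changed with the block alone.

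Counts of changed genes moved in the lists. Other keratins (2) had 0 with library totals, DESeq2, the correction with or without block, or the threshold of 0.01, had 1 when thinned, and 0 to 2 with 1 library left out. Other filament genes (4) had 2 with DESeq2, thinning or the threshold of 0.01, and 2 to 4 with 1 library left out. Plakins (3) had 5 with library totals and 1 with the correction, with or without block. Filament partners (4) had 0 with the correction, with or without block. Regulators (0) had 3 with library totals, 1 when thinned, and 0 to 2 with 1 library left out. HSPB1 was -0.0132 with the correction and -0.0117 with block as well. KRT8P12 was 0.0208 with the block, 0.0442 when thinned and -0.0822 to 0.1188 with 1 library left out. KRT83 was 0.0019 when thinned and -0.1072 to 0.0638, and VIM-AS1 -0.1491 to 0.5001, with 1 library left out. The cause of these shifts was not tested. NEFL was not in the corrected analysis, since its identifier is not in GENCODE 29. DESeq2 gave an adjusted p to 2 of 7 other keratins, 0 of 5 pseudogenes and 3 of 13 regulators. Depth limits KRT19, with 22 to 41 counts a sample.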

Other observations

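KRT86 stood apart in how it varied between replicates of 1 group. This was examined after its values had been seen. In a model with both treatment and replicate number, the term for replicate number passed for 20 of 15848 genes (0.126%, edgeR's quasi-likelihood test), and KRT86 ranked 2 by p (adjusted p = 3.11e-07). The first was XAGE1D, a cancer-testis antigen gene (adjusted p = 3.87e-09), and the third was POLR2J2 (adjusted p = 4.81e-05). KRT81, with which KRT86 shares much of its coding sequence, ranked 1403 (adjusted p = 1), KRT83 ranked 119 (adjusted p = 0.985), and KRT7 and KRT121P, from the same stretch of chromosome 12, had an adjusted p of 1. Within each replicate number KRT86 was higher in rhSP-D, by a ratio of 1.15, 1.24 and 1.25 for replicates 1, 2 and 3, beside 1.15, 1.13 and 1.17 for KRT81. What the replicate number stands for is not given in the sources used here, and the part of reads shared with KRT81 in this pattern was not tested.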
